A study of Homo sapiens with 12 samples.

Results

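*SERPINA1*, *SERPINA3*, *SERPINA5*, *SERPINA6* and *SERPINA11*, serpin genes of the cluster at 14q32, and *A2M*, the gene of alpha-2-macroglobulin on chromosome 12, were followed in ZR-75-1 cells with and without *RB1*. The 6 genes were taken by symbol from the 60612 named rows of the count table. *SERPINA11* and *A2M* were selected on their measured response to abemaciclib in cells with *RB1* and its size in cells without it, so their values are given as a description with no test. The other 4 serpin genes were added for their place in the cluster.

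Serpins trap their target protease by a large change of shape that locks the enzyme in an inactive complex. *SERPINA1* encodes alpha-1-antitrypsin, the main plasma inhibitor of neutrophil elastase, and *SERPINA3* encodes alpha-1-antichymotrypsin, which inhibits cathepsin G. *SERPINA5* encodes protein C inhibitor, and *SERPINA6* encodes corticosteroid-binding globulin, a serpin that carries hormone instead of inhibiting a protease. *SERPINA11* is a less studied member of the cluster. Alpha-2-macroglobulin belongs to another family: it entraps proteases of many classes, and the complex is taken up through the receptor LRP1. The liver is the main source of most of these plasma proteins, and several of them also occur in epithelial cells.

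ZR-75-1 is a human line from a breast cancer that expresses the oestrogen receptor. Cells edited with CRISPR with a non-targeting guide (sgControl) or a guide against *RB1* (RB1 knockout) received DMSO, the solvent, or 500 nM abemaciclib, an inhibitor of CDK4 and CDK6, for 5 days. These were sgControl in DMSO, sgControl in abemaciclib, RB1 knockout in DMSO and RB1 knockout in abemaciclib, with 3 biological replicates each. The study's methods describe RB1 knockout clones grown after single-cell sorting, and do not say whether the sgControl cells were clones. The labels do not say that a genotype had more than 1 clone, and if it had 1, clone and genotype cannot be told apart.

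Each of the 12 libraries held 39907318 to 81636393 counts. *RB1* itself had 2090 to 7543 counts per library in sgControl and 29 to 63 in RB1 knockout. Every library was most similar to libraries of its own group, with correlations of at least 0.989 within groups. The sgControl DMSO libraries differed most among themselves, with a chi-square per gene of 105 between replicates 1 and 3 and 50.2 between replicates 1 and 2, beside 3.49 to 18.1 for the other pairs within groups. Without the first sgControl DMSO library, the log2 response in sgControl was 5.17 for *SERPINA1*, 2.44 for *SERPINA3*, 4.26 for *SERPINA5* and 2.33 for *SERPINA6*, and all 4 passed. Mitochondrial genes took 2.82% to 4.13% of the counts in DMSO and 5.44% to 8.53% in abemaciclib. All 7 cell cycle genes listed as targets of E2F, the factor that Rb restrains, fell under abemaciclib in sgControl, and 4 of 7 fell in RB1 knockout (E2F target median log2 fold changes −3.9 and −0.278). The 10 luminal breast epithelial markers were detected in all groups, with summed normalised counts of 907500 to 1514000 per library.

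On the GRCh38 genome, in the GENCODE 44 annotation, the cluster runs on chromosome 14 from *SERPINA6* (94304248 to 94323389, minus strand) through *SERPINA1* (94376747 to 94390693, minus) and *SERPINA11* (94442464 to 94452800, minus) to *SERPINA5* (94561442 to 94593118, plus) and *SERPINA3* (94612384 to 94624055, plus). *A2M* lies on chromosome 12 from 9067664 to 9116229 on the minus strand, with 36 exons in its canonical transcript. *SERPINA1*, *SERPINA6* and *SERPINA11* share no exon base with another gene, in this annotation. The whole canonical transcript of *SERPINA3*, 1576 bases, also lies in exons of ENSG00000273259 on the same strand, and its counts are uncertain for that reason. *A2M* shares 8.88% of its exon bases with the antisense gene *A2M-AS1*, and *SERPINA5* shares 3.52% with *SERPINA4* and ENSG00000273259.

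The sequences before the gene starts are shown because the responses below concern RNA levels of neighbouring genes. Each is the 250 bases upstream of a RefSeq start (GRCh38.p14), written 5′ to 3′ on the gene's strand, and 5 of the starts are printed. Capitals mark GTTAAT (the HNF1 core), TGTTTNC (the FOXA core) or GGTCA (an oestrogen response half-site) on either strand; no 2 of these matches overlap. The 2 *SERPINA1* starts are at chr14:94388603-94388852 and chr14:94390636-94390885, both on the minus strand. *SERPINA11* is at chr14:94452801-94453050 and *SERPINA6* at chr14:94323337-94323586 on the minus strand, and *SERPINA5* is at chr14:94581176-94581425 on the plus strand. This RefSeq start of *SERPINA5*, 94581426, lies inside its GENCODE span, which begins at 94561442, the start that *SERPINA4* shares.
SERPINA1, first window: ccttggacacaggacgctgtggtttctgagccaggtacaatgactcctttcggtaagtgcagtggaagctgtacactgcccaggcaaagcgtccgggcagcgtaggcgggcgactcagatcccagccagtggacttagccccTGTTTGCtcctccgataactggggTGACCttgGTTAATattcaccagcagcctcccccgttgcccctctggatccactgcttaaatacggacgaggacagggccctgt
SERPINA1, second window: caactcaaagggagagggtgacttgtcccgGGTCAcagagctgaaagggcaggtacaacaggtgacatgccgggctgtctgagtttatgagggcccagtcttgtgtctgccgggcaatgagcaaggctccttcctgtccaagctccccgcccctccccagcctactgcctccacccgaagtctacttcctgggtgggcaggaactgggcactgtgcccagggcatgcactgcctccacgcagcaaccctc
SERPINA11: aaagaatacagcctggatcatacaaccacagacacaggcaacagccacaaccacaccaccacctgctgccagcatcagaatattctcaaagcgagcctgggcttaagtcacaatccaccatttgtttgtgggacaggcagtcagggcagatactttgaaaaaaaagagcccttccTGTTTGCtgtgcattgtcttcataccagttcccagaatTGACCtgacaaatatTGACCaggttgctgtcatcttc
SERPINA5: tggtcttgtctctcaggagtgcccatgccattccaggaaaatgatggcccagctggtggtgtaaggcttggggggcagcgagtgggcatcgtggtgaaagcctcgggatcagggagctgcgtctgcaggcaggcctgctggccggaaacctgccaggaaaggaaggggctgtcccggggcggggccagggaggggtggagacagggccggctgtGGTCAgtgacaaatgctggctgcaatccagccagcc
SERPINA6: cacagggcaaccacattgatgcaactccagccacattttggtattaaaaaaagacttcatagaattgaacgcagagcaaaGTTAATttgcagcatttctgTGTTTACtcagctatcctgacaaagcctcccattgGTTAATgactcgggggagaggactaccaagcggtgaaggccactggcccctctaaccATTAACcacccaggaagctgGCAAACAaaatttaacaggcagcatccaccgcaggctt

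The first *SERPINA1* window held 1 HNF1 core, 1 FOXA core and 1 GGTCA, whereas the second held GGTCA alone. *SERPINA6* held 3 HNF1 cores and 2 FOXA cores. *SERPINA11* held a FOXA core 75 bases before the start and GGTCA at 37 and at 22 bases before it, *SERPINA5* held 1 GGTCA, and *SERPINA3*, not printed, held 2. Among 35116 RefSeq promoter windows of the same length, 6.23% held the HNF1 core, 15.5% the FOXA core and 32.6% GGTCA. No *SERPINA1*, *SERPINA3*, *SERPINA5*, *SERPINA6* or *SERPINA11* window held a full palindromic oestrogen response element (GGTCA and its complement 3 bases apart, in 0.0399% of all windows) or the E2F letters TTTCGCGC or TTTGGCGC (0.968%), on either strand. The same scan found TTTGAA, the CHR element of cell cycle genes, 97 bases before the *SERPINA11* start (13.3% of all windows), and TTCCNGGAA, a STAT site, 220 bases before the *SERPINA5* start (0.968%). A match is a run of letters and not a shown binding site.

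In sgControl cells the whole group went up under abemaciclib. *SERPINA1* rose most in level: its normalised counts, which are counts divided by a library size factor, were 2057, 1882 and 1504 in DMSO and 66400, 57200 and 59140 in abemaciclib. The lowest abemaciclib library thus lay far above the highest DMSO library. The means were 1814 ± 283 and 60910 ± 4850 (SD, n = 3), a 33.6-fold rise (log2 fold change 5.07 ± 0.11, SE; DESeq2 adjusted p too small for the software to represent). *SERPINA1* went from at most 0.00356% of all counts in a DMSO library to at least 0.0979% in an abemaciclib library. Since these are bulk samples, more cells that express the gene and more RNA per cell cannot be told apart.

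**Figure D1:**
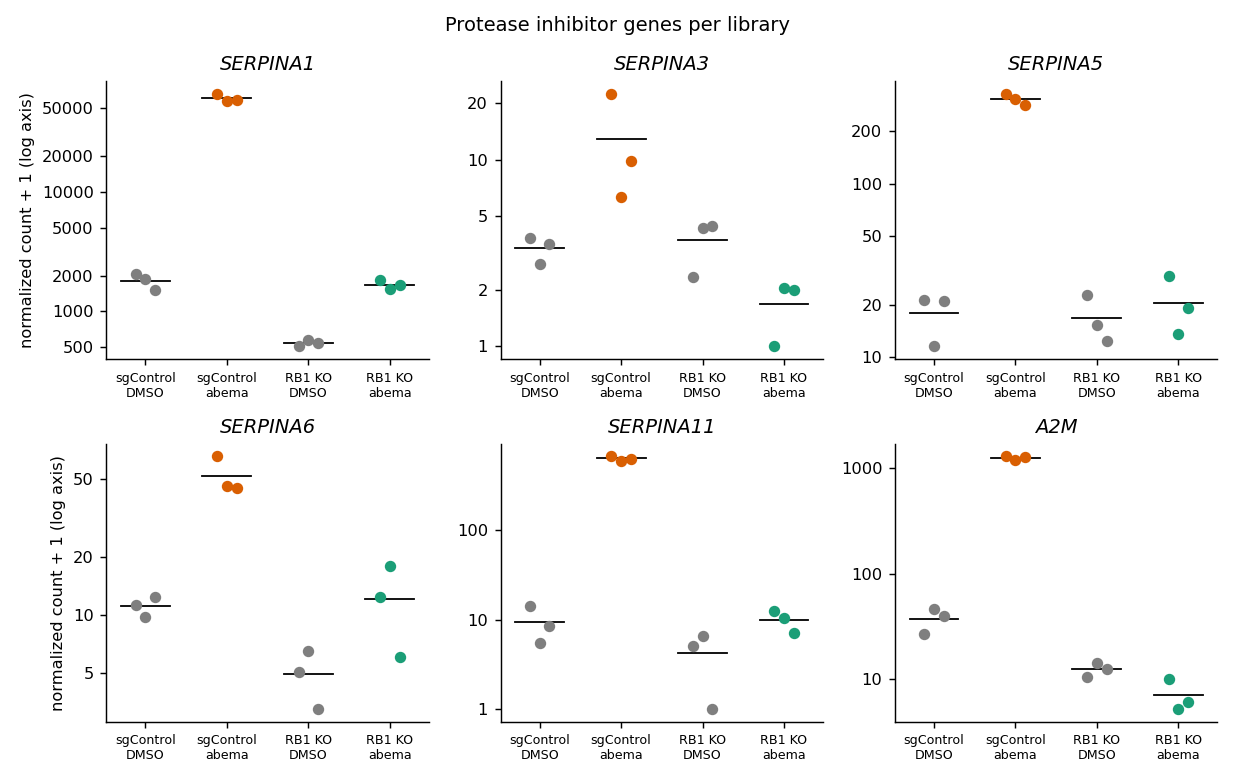
Normalised counts of the 6 genes in each library (log axes, normalised count + 1), by group; each point is 1 library and each line the mean of 3. The sgControl abemaciclib libraries sit highest in each panel, from 57200 to 66400 for *SERPINA1* and from 1188 to 1290 for the selected *A2M*; 25.0% of all genes tested were higher in sgControl after abemaciclib.

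*SERPINA5*, the protein C inhibitor gene, had 20.48, 10.58 and 20.16 normalised counts in DMSO and 327.6, 306.4 and 281.9 in abemaciclib. These groups were well apart, with means of 17.1 ± 5.6 and 305.3 ± 22.9 (SD, n = 3). The fold was 17.7 (log2 fold change 4.14 ± 0.27, adjusted p = 1.11e-52). *SERPINA6*, the corticosteroid-binding globulin gene, stayed low, at 10.24, 8.814 and 11.34 normalised counts in DMSO and 64.66, 45.16 and 44.05 in abemaciclib. All abemaciclib libraries were above all DMSO libraries, by 5.02-fold in the fit (log2 fold change 2.33 ± 0.43, adjusted p = 3.34e-07). *SERPINA3* was close to the limit of detection, with 3, 2 and 4 raw counts in DMSO and 20, 6 and 10 in abemaciclib. The groups did not overlap, and the test passed (log2 fold change 2.32 ± 0.87, adjusted p = 0.0177). The pooled counts, 36 against 9, gave a ratio of 4.76 per unit of depth with a 95% counting interval of 2.25 to 11.2. This call was lost without the first abemaciclib library (log2 fold change 1.58, adjusted p = 0.21), without the second DMSO library (2.15, adjusted p = 0.064) and without the third (2.37, adjusted p = 0.0562).

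The 2 genes selected on their response were low in DMSO. *SERPINA11* had 13.03, 4.407 and 7.559 normalised counts in DMSO and 663.8, 596 and 626.3 in abemaciclib, a 76.8-fold difference (log2 fold change 6.26 ± 0.30). *A2M* had 26.07, 44.95 and 38.43 normalised counts in DMSO and 1290, 1188 and 1263 in abemaciclib, a 33.9-fold difference (5.08 ± 0.16). For both genes the spread within abemaciclib was small, with an SD of 34 around 628.7 for *SERPINA11* and of 52.6 around 1247 for *A2M*. All 4 genes that were not selected on their response passed the threshold of adjusted p = 0.05 as higher, in a comparison in which 25.0% of the 22723 genes tested were higher and 24.8% lower. As a description, the median log2 fold change of the 6 was 4.61, beside 0.00647 over all genes tested. Scaling by total counts moved the all-gene median to −0.124 and the split from 5675 higher and 5630 lower genes to 4532 and 6779; the same 4 of 4 genes passed as higher in that scaling.

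In RB1 knockout cells *SERPINA1* rose under the same treatment, and the other serpins not selected on their response did not pass the test. *SERPINA1* had 509.6, 576.2 and 545.7 normalised counts in DMSO and 1820, 1530 and 1667 in abemaciclib. The groups did not overlap and the rise was 3.07-fold (log2 fold change 1.62 ± 0.11, adjusted p = 1.35e-44). *SERPINA5* had 21.86, 14.32 and 11.37 normalised counts in DMSO and 28.31, 12.63 and 18.16 in abemaciclib. These ranges overlapped (log2 fold change 0.33 ± 0.36, adjusted p = 0.55). *SERPINA6* had 4.099, 5.509 and 2.274 in DMSO and 11.32, 16.85 and 5.043 in abemaciclib, and its ranges overlapped too. Its log2 fold change of 1.47 ± 0.63 did not pass (adjusted p = 0.0612), but passed without the third abemaciclib library (1.83, adjusted p = 0.0206) and when genes with low counts were left out beforehand (1.48, adjusted p = 0.0461). *SERPINA3* had 1, 3 and 3 raw counts in DMSO and 0, 1 and 1 in abemaciclib, so no fold is given (adjusted p = 0.293).

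*SERPINA11* had 4.099, 5.509 and 0 normalised counts in RB1 knockout in DMSO and 11.32, 9.476 and 6.052 in abemaciclib. The pooled raw counts were 8 and 25, a depth-corrected ratio of 2.79 with a 95% counting interval of 1.22 to 7.15. Its log2 fold change of 1.48 ± 0.60 was 2.25 without the second DMSO library and 0.86 without the third, the one at 0. *A2M* went the other way, from 9.564, 13.22 and 11.37 to 9.06, 4.212 and 5.043, with every abemaciclib library under every DMSO library. Its 29 and 17 pooled counts gave a ratio of 0.523 (95% counting interval 0.27 to 0.984), which covers counting error only. Of the 4 genes not selected on their response 1 passed as higher, *SERPINA1*, where 14.9% of the 18546 genes tested were higher and 15.1% lower. As a description that includes the selected genes, the median log2 fold change of the 6 was 0.901, beside 0.0168 over all genes tested.

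**Figure D2:**
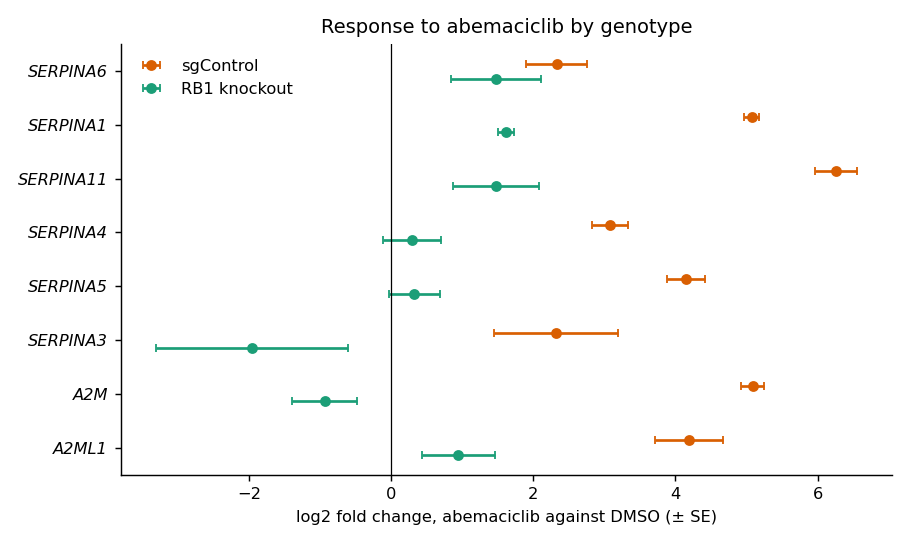
Log2 fold change of abemaciclib against DMSO (± SE) in sgControl and RB1 knockout cells for the 6 genes and their relatives *SERPINA4* and *A2ML1*, in cluster order for the serpins. In sgControl all values lie between 2.32 and 6.26, and in RB1 knockout between −1.96 and 1.62. The −1.96 is *SERPINA3*, which had 0 to 3 counts per library in RB1 knockout (SE 1.35).

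The interaction compares the 2 responses directly. The response of *SERPINA1* was smaller in RB1 knockout by −3.45 ± 0.15 on the log2 scale (adjusted p = 1.01e-109), although *SERPINA1* rose in both genotypes. For *SERPINA5* the difference of responses was −3.82 ± 0.45 (adjusted p = 1.8e-16), and for *SERPINA3* it was −4.28 ± 1.61 (adjusted p = 0.0209). The *SERPINA3* value rests on RB1 knockout groups of at most 3 counts per library. It did not pass without the first sgControl abemaciclib library (−3.54, adjusted p = 0.0899) or without the first RB1 knockout abemaciclib library (−3.73, adjusted p = 0.0542). The response of *SERPINA6* was not shown to differ between genotypes (−0.85 ± 0.77, adjusted p = 0.409). *SERPINA11* differed by −4.78 ± 0.67 and *A2M* by −6.02 ± 0.48, the contrast on which both were selected. Thus 3 of the 4 genes not selected on this contrast were lower, where 21.1% of 20932 genes tested were higher and 20.3% lower. As a description, the median of the 6 was −4.05, beside 0.0259 over all genes tested. It is partly fixed by the selection of *SERPINA11* and *A2M* on this contrast. With total-count scaling 5467 genes were higher and 3098 lower, in place of 4417 and 4251.

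Without drug, the 2 genotypes already differed for part of the group. *SERPINA1* was lower in RB1 knockout, where its highest library (576.2) lay under the lowest sgControl library (1504; log2 fold change −1.74 ± 0.11, adjusted p = 4.32e-52). *SERPINA5* had overlapping ranges (−0.15 ± 0.35, adjusted p = 0.787). *SERPINA6* did not overlap, at 2.274 to 5.509 in RB1 knockout and 8.814 to 11.34 in sgControl, but did not pass the test (−1.36 ± 0.62, adjusted p = 0.0702). *SERPINA3*, at 7 and 9 pooled counts, was too low for the test to assign an adjusted p. *A2M* was at 9.564 to 13.22 in RB1 knockout and 26.07 to 44.95 in sgControl, a log2 fold change of −1.68 ± 0.31. *SERPINA11* overlapped at 5.509 against 4.407 (−1.37 ± 0.59). Of the 4 genes not selected on their response 1 passed as lower, *SERPINA1*; 18.2% of 16755 genes tested were lower and 19.2% higher. As a description that includes the selected genes, the median over the 6 was −1.36, beside −0.00561 over all genes tested.

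In abemaciclib the fitted level of each of the 6 was lower in RB1 knockout than in sgControl. *SERPINA11* and *A2M* were selected on their response, and 27.4% of all genes tested passed as lower. *SERPINA1* was 36.3-fold higher in sgControl by pooled counts (95% counting interval 35.3 to 37.4), with a log2 fold change of RB1 knockout against sgControl of −5.19 ± 0.11 and an adjusted p too small to represent. *SERPINA5* differed by −3.96 ± 0.28 (adjusted p = 5.8e-45) and *SERPINA6* by −2.21 ± 0.45 (adjusted p = 2.49e-06). *SERPINA3* differed by −4.06 ± 1.25 (adjusted p = 0.00272); its 36 pooled counts against 2 gave a ratio of 15.9 with a counting interval of 4.1 to 137. *A2M* showed the widest gap of the 6, 3973 pooled counts in sgControl against 17 in RB1 knockout (ratio 207, counting interval 129 to 355). *SERPINA11* had 2000 against 25 (ratio 70.8, counting interval 47.8 to 110). All 4 genes not selected on their response passed as lower in RB1 knockout, where 27.4% of 21529 genes tested were lower and 28.5% higher. With total-count scaling 4820 were lower and 6991 higher, in place of 5906 and 6133. As a description that includes the selected genes, the median of the 6 was −4.62, beside 0.0171 over all genes tested.

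The order of the 4 groups was therefore not the same for each gene. Every gene had its highest mean in sgControl in abemaciclib, which for *SERPINA11* and *A2M* follows from their selection. The share of all genes with their highest mean in that group was not counted. For *SERPINA1* the next were sgControl in DMSO (1504 to 2057) and RB1 knockout in abemaciclib (1530 to 1820), which overlapped, and RB1 knockout in DMSO was lowest. *A2M* ran from sgControl in DMSO through RB1 knockout in DMSO to RB1 knockout in abemaciclib, with no overlap between neighbours. The RB1 knockout libraries held only 4 to 12 *A2M* counts each. The 3 lower groups overlapped for *SERPINA5*.

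Scaled by the length of exons, which allows levels of different genes to be compared, *SERPINA1* stood apart from the rest. In sgControl it went from 370.1 ± 57.7 normalised counts per kb (SD, n = 3), rank 5079 of 22927 genes, to 12426 ± 990 and rank 168. In RB1 knockout it went from 110.9 ± 6.8 (rank 8540) to 341.2 ± 29.6 (rank 5279). After abemaciclib in sgControl, *SERPINA11* followed at 423.1 ± 22.9 per kb, then *A2M* at 197.4 ± 8.3, *SERPINA5* at 81.4 ± 6.1, *SERPINA6* at 27.8 ± 6.3 and *SERPINA3* at 2.38 ± 1.71. In sgControl in DMSO *A2M*, *SERPINA11*, *SERPINA6* and *SERPINA5* were close together, at 4.55 to 5.77 per kb. In RB1 knockout in abemaciclib *SERPINA1* was again the highest, and no other gene of the 6 was above 6.02 per kb. These levels assume that reads cover the whole transcript.

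*SERPINA4*, the gene of the kallikrein inhibitor kallistatin, lies from 94561442 to 94569913, within the annotated span of *SERPINA5*, and was not one of the 6. The exons of these 2 genes share 53 bases. Its normalised counts were 34.4 ± 5.6 (SD, n = 3) in sgControl in DMSO, 291.1 ± 30.9 in sgControl in abemaciclib, 11.9 ± 8.2 in RB1 knockout in DMSO and 14.7 ± 6.6 in RB1 knockout in abemaciclib. It rose in sgControl (log2 fold change 3.08 ± 0.25, adjusted p = 2.41e-33), and its response was smaller in RB1 knockout (interaction −2.79 ± 0.48, adjusted p = 3.53e-08). Of the 8 other serpins of the same clade with a row in the table, 3 were tested in sgControl and *SERPINA4* was the one that passed. *SERPINA2*, the nearest neighbour of *SERPINA1*, averaged at most 4.71 normalised counts in any group (log2 fold change 3.06 in sgControl, adjusted p = 0.137).

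The genes around the cluster were read in the same way. Over all genes tested, 25.0% were higher and 24.8% lower in sgControl, and 14.9% and 15.1% in RB1 knockout. In the interaction 21.1% were higher and 20.3% lower. Within 1000 kb of the *SERPINA1* start, 16 genes other than the 5 serpins were tested in sgControl; 7 were higher and 1 lower, with a median log2 fold change of 0.344. The 2 with a value above 2 were the serpins *SERPINA4* and *SERPINA2*. On the side of *SERPINA6*, *PPP4R4*, which encodes a regulatory subunit of protein phosphatase 4, rose by 1.67 ± 0.15 on the log2 scale in sgControl (adjusted p = 6.85e-28), and *IFI27L2* by 1.44 ± 0.16 (adjusted p = 1.12e-18). *PRIMA1*, the membrane anchor of acetylcholinesterase, 602.2 kb from *SERPINA1*, moved the other way by −7.69 ± 0.38 (adjusted p = 7.95e-90). In RB1 knockout 12 of these genes were tested, 4 higher and 2 lower. The response was smaller in RB1 knockout for 6 and larger for 2 of 15 tested (median interaction −0.464), with −1.08 ± 0.23 for *PPP4R4* (adjusted p = 1.04e-05) and −1.001 ± 0.24 for *IFI27L2* (adjusted p = 1.29e-04). Over the wider list of 14q32 neighbours, 33 tested, 13 were higher and 5 lower in sgControl (median 0.239), and 7 and 4 of 29 in RB1 knockout (median 0.0856), with an interaction that was lower for 11 and higher for 6 of 31 (median −0.104). Of the listed 12p13 neighbours of *A2M*, 3 were higher and 3 lower of 9 tested in sgControl (median −0.131).

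**Figure D3:**
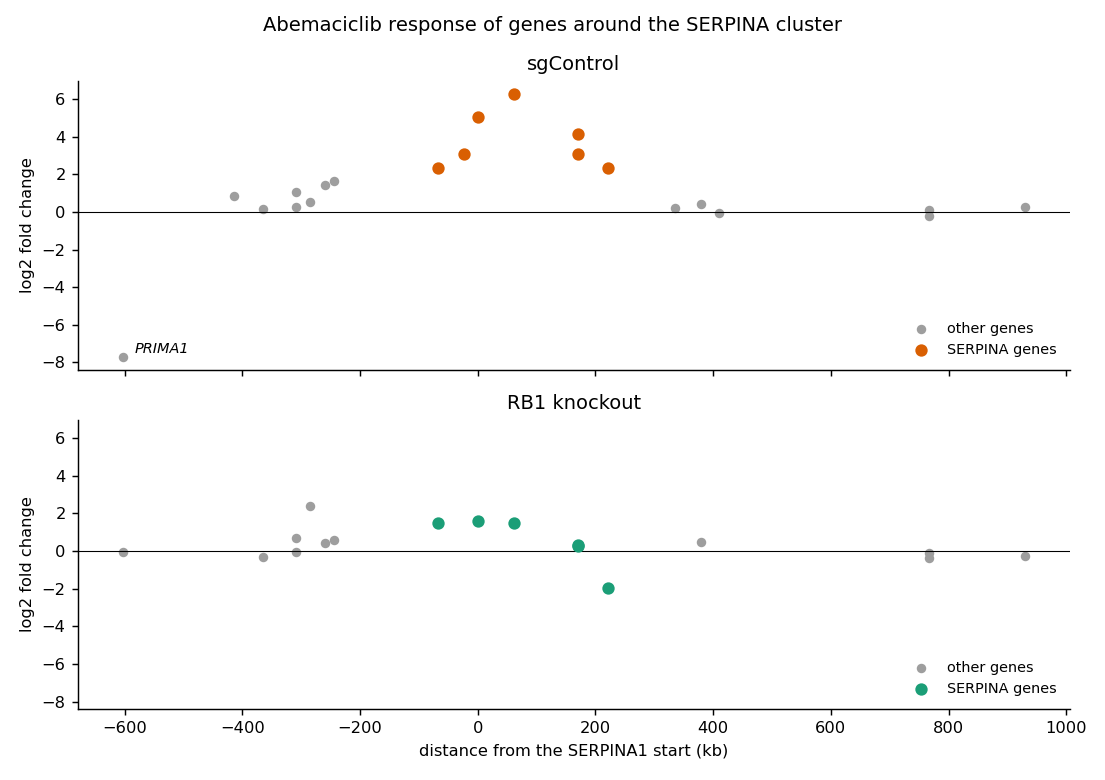
Log2 fold change of abemaciclib against DMSO for each tested gene, by distance (kb) of its start from the *SERPINA1* start on chromosome 14, in sgControl (top) and RB1 knockout (bottom); coloured points are SERPINA genes. In sgControl the serpins lie between 2.32 and 6.26 and *PRIMA1* lies at −7.69; *SERPINA4* and *SERPINA5* share 1 annotated start.

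The serpins of other clades, which lie elsewhere in the genome, moved both ways. In sgControl 3 of 15 tested were higher and 4 lower (median −0.143), and in RB1 knockout 3 and 4 of 13 (median −0.0998). Over all genes tested, 25.0% were higher and 24.8% lower in sgControl, and 14.9% and 15.1% in RB1 knockout. *SERPINI1*, which encodes the tissue plasminogen activator inhibitor neuroserpin, rose by 1.83 ± 0.15 on the log2 scale in sgControl (adjusted p = 5.65e-33) and fell by 1.12 ± 0.26 in RB1 knockout (log2 fold change −1.12, adjusted p = 1.09e-04), and the interaction was −2.94 ± 0.30 (adjusted p = 4.7e-22). *SERPINB5*, the gene of maspin, was lower after abemaciclib in both genotypes (−0.91 ± 0.18, adjusted p = 2.64e-06, and −0.71 ± 0.15, adjusted p = 2.76e-05). *SERPINH1*, which encodes the collagen chaperone HSP47, rose by 0.49 ± 0.05 in sgControl (adjusted p = 4.39e-26).

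Relatives of *A2M* moved in both directions as well. Of 8 tested in sgControl 4 were higher and 2 lower (median 1.33), and of 6 in RB1 knockout 3 were higher (median 0.91). The shares over all genes tested were 25.0% higher and 24.8% lower in sgControl, and 14.9% higher in RB1 knockout. *CD109*, a membrane-bound member of the family, went down in sgControl, where *A2M* rose, with a log2 fold change of −2.19 ± 0.19 (adjusted p = 3.9e-29). In RB1 knockout *CD109* went up by 0.87 ± 0.16 (adjusted p = 1.18e-06). The *A2M* value there, −0.93 ± 0.45, rests on 4 to 12 counts per library. *C5*, the gene of complement component C5, went down by −2.30 ± 0.12 in sgControl (adjusted p = 3.44e-85), and the interaction was 2.47 ± 0.15 (adjusted p = 1.1e-56). *A2ML1*, whose start lies 293.6 kb from that of *A2M* on chromosome 12, was chosen for mention after its values were seen: it averaged 4.82 ± 1.54 normalised counts in sgControl in DMSO and 86.9 ± 8.3 in abemaciclib, beside 7.41 ± 1.74 and 14.4 ± 9.7 in RB1 knockout. Its log2 response in sgControl was 4.19 ± 0.48, with an interaction of −3.24 ± 0.70. *CPAMD8*, *C3* and *PZP*, also named after their values were seen, passed as higher in sgControl too. *CPAMD8* rose by 3.02 ± 0.57, with an interaction of −3.54 ± 0.86. *C3* rose by 1.44 ± 0.35 and *PZP*, from 0 counts to 4 to 10 per library, by 5.45 ± 1.82. Neither *C3* nor *PZP* passed in the interaction.

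Among protease inhibitors of other families, 9 of 17 tested rose in sgControl and 3 were lower (median 0.5). Over all genes tested these shares were 25.0% and 24.8%. In RB1 knockout 6 of 15 rose (median 0.316), beside 14.9% of all genes tested. *TIMP1*, an inhibitor of matrix metalloproteinases, rose by 3.37 ± 0.13 on the log2 scale in sgControl (adjusted p = 5.36e-140) and by 0.85 ± 0.13 in RB1 knockout (adjusted p = 4.05e-09), and the interaction was −2.51 ± 0.19 (adjusted p = 6.39e-39). *TIMP2* rose by 1.81 ± 0.08 in sgControl (adjusted p = 8.25e-121). *TFPI2*, a Kunitz-type inhibitor, rose in both genotypes, by 1.76 ± 0.08 and 0.80 ± 0.09 (adjusted p = 4.88e-111 and 5.97e-19). *WFDC2* went down by −1.61 ± 0.23 in sgControl (adjusted p = 4.58e-12) and up by 0.51 ± 0.20 in RB1 knockout (adjusted p = 0.0395).

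**Figure D4:**
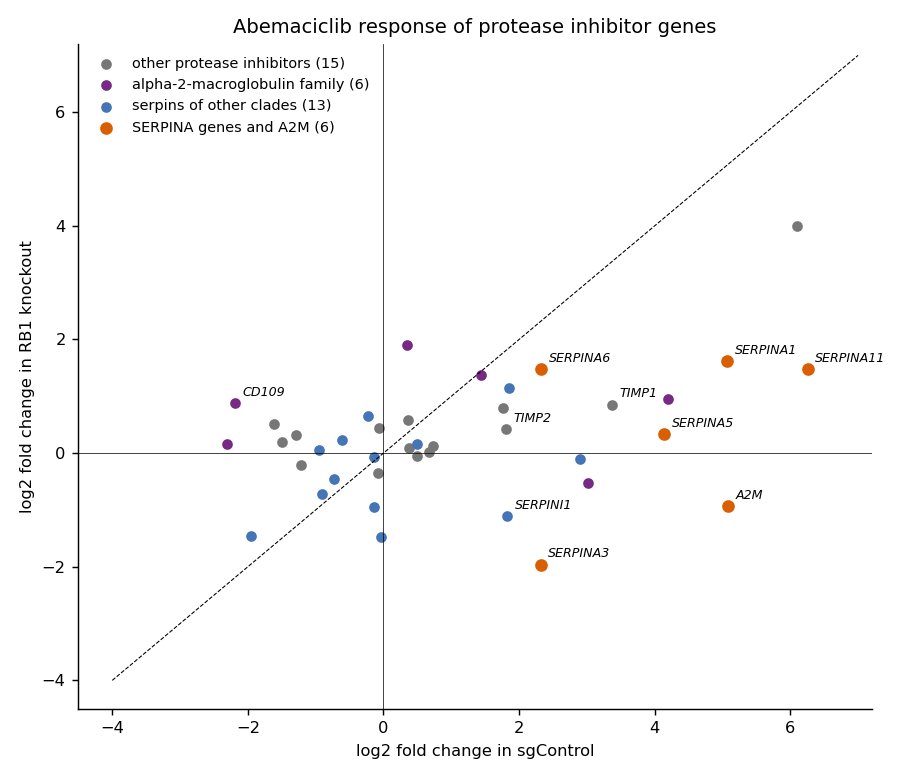
Log2 fold change of abemaciclib against DMSO in sgControl (x axis) and RB1 knockout (y axis) for the protease inhibitor genes tested in both; the dashed line marks equal responses, and the key gives each list's number of points. The 6 genes lie to the right and below the line, *SERPINA11* at 6.26 and 1.48, while *CD109* lies on the opposite side at −2.19 and 0.87.

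Among proteases that these inhibitors act on and receptors that clear the complexes, 8 of 11 tested were higher and 1 lower in sgControl (median 1.04). The list held 24 genes. *ELANE* and *CTSG*, the genes of the targets neutrophil elastase and cathepsin G named above, had at most 1 count in any library. In RB1 knockout 2 of 9 were higher and 1 lower (median 0.404). All genes tested were higher for 25.0% and lower for 24.8% in sgControl, and for 14.9% and 15.1% in RB1 knockout. *LRP1*, the receptor for alpha-2-macroglobulin complexes, rose by 1.09 ± 0.14 on the log2 scale in sgControl (adjusted p = 5.53e-15), and the interaction was −1.37 ± 0.20 (adjusted p = 1.95e-11). *LRPAP1*, the chaperone of LRP1, rose by 0.83 ± 0.07 (adjusted p = 6.66e-34) and was lower by −0.26 ± 0.07 in RB1 knockout (adjusted p = 0.00103). *PLAUR*, the urokinase receptor gene, was lower in sgControl (−0.84 ± 0.14, adjusted p = 1.19e-08).

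Several of these serpins are known as acute phase genes, so other such genes were listed. Of 14 tested in sgControl 4 were higher and 1 lower (median 0.486), and of 9 in RB1 knockout 2 were higher and 1 lower (median 0.303). For this list and the next, the shares over all genes tested were 25.0% higher and 24.8% lower in sgControl. In RB1 knockout they were 14.9% and 15.1%. *SOD2*, the one listed gene that reached the level set for naming, differed by 0.12 ± 0.05 on the log2 scale in sgControl (adjusted p = 0.0302), but by −0.01 under total-count scaling. In the IL-6 and STAT3 pathway, which drives the acute phase response in liver, 10 of 17 were higher and 4 lower in sgControl (median 0.592; 8 higher with total-count scaling), and 6 were higher and 1 lower in RB1 knockout (median 0.237). *IL6ST*, the shared receptor subunit gp130, rose in both genotypes, by 1.12 ± 0.12 and 0.44 ± 0.12 (adjusted p = 3.35e-21 and 8.74e-04). *SOCS3*, the feedback inhibitor of the pathway, rose by 1.09 ± 0.15 in sgControl and by 1.92 ± 0.15 in RB1 knockout (adjusted p = 1.82e-12 and 2.06e-37). *PIM1*, a kinase gene induced by STAT3, went down by −7.06 ± 0.47 in sgControl (adjusted p = 4.68e-50), and the interaction was 6.91 ± 0.48 (adjusted p = 8.86e-45).

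Transcription factors with known sites at the cluster or at *A2M* were higher for 7 and lower for 2 of 13 tested in sgControl (median 0.3), and higher for 2 and lower for 4 of 11 in RB1 knockout (median 0.024). Over all genes tested, 25.0% were higher and 24.8% lower in sgControl, and 14.9% and 15.1% in RB1 knockout. *ESR1*, the oestrogen receptor gene, rose by 0.59 ± 0.10 on the log2 scale in sgControl (adjusted p = 1.08e-08) and was lower by −0.39 ± 0.10 in RB1 knockout (adjusted p = 6.58e-04), and the interaction was −0.98 ± 0.14 (adjusted p = 2.65e-11). *CEBPA* also had a smaller response in RB1 knockout (interaction −0.82 ± 0.10, adjusted p = 2.9e-15). *FOXA3*, a liver-enriched forkhead factor, was lower after abemaciclib in both genotypes, by −1.42 ± 0.09 and −0.51 ± 0.09 (adjusted p = 1.22e-53 and 2.4e-07). *FOXA1*, named after its values were seen, moved the other way in sgControl, from a mean of 19670 normalised counts to 27080 (0.46 ± 0.05). Its value in RB1 knockout was −0.12 ± 0.06, which did not pass, and its interaction was −0.58 ± 0.08. Their relation to the promoter letters above was not tested.

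Because the 6 proteins are typical of liver and some occur in macrophages, markers of other cell types were counted. The 10 hepatocyte markers summed to 14.1 to 27 normalised counts in sgControl in DMSO and 138.3 to 201.5 in abemaciclib, and to 5.66 to 21.9 in RB1 knockout in either treatment. *APOB*, *CYP3A4* and *APOC3* were at 0 in every group, *ALB* averaged at most 4.31, and most of the rise was *APOA1*, at 1.12 and 126.1 in sgControl. The 8 leukocyte and macrophage markers summed to 42.3 to 60.5 in sgControl in DMSO and 451.5 to 549.9 in abemaciclib, beside 70.5 to 129.5 in RB1 knockout. *LYZ*, the lysozyme gene, made up most of that rise (24.3 and 505.3), while *CD3E* was at 0 in every group, *CD68* was at 0 in both sgControl groups and *PTPRC* averaged at most 2.49. *ITGAM* went the other way, from a mean of 23.3 in sgControl in DMSO to 7.01 in abemaciclib, beside 55.2 and 67.6 in RB1 knockout. *CSF1R* averaged 1.24 and 1.31 in sgControl and 6.80 and 18.8 in RB1 knockout. *APOA1*, *ITGAM* and *CSF1R* are named after their values were seen. The 8 fibroblast markers summed to 2458 to 2901 and 4036 to 4331 in sgControl and 2220 to 3148 in RB1 knockout, and the 5 basal markers to 517.2 to 725.2 and 136.4 to 154.2 in sgControl and 904.8 to 1024 in RB1 knockout. *COL1A1* (group means 1940 to 2903) and *FN1* (313.6 to 1226) made up most of the fibroblast sums. *VIM*, *COL1A2* and *COL3A1*, also named after their values were seen, had at most 4 counts in any library. The part of these markers in the results for the 6 genes was not tested.

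Across the 12 libraries, the genes most like each of the 5 better measured ones on log2(normalised count + 1), among genes with a mean of at least 100, were read by Pearson's r as a description. All libraries of a group share their genotype and treatment, so the points are not independent. *SERPINA1* was closest to *TMEM229B* (0.996), *C17orf77* (0.996) and *LRRC31* (0.995), and *C17orf77* had a log2 response of 4.67 in sgControl and 1.16 in RB1 knockout. *A2M* was closest to *KCNMA1*, *MCCC2* and *MORC4* (0.994 to 0.995), and *KCNMA1*, a potassium channel gene, had log2 responses of 3.07 and −0.587. *SERPINA11* was closest to *PPM1N*, *SLC25A16* and *PEPD* (0.984 to 0.987). *SERPINA5* was closest to *TMEM63C*, *DCAF10* and *TMEM25* (0.982 to 0.985), and *SERPINA6* to *TPT1-AS1*, *ABCD4* and *B4GALT1* (0.963 to 0.965). Among themselves, *SERPINA1* and *SERPINA11* were most alike (0.972), and *SERPINA3* had the lowest values with the others (0.629 to 0.832).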

How the data were processed

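RNA of 12 ZR-75-1 samples was sequenced, 3 replicates in each of 4 groups taken from the sample titles. The deposited values are raw counts per gene. Per the labels, the authors aligned to hg38 with STAR 2.7.5b and counted with featureCounts 2.0.1. The study's methods add BBDuk trimming and counting on an earlier GENCODE release than GENCODE 44. Exon lengths and overlaps given here can therefore differ from those used in counting. Whether counting used strand, and how reads mapping to several places were treated, is not given in the sources used here. The labels name a directional whole-transcript kit and the general methods a 3′ kit; under the latter, levels per kb would not hold. The 44 rows without a symbol were left out of 60656; 28342 rows held no count.

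One DESeq2 1.42.0 model (R 4.3.3) with a term for group, median-of-ratios size factors and no replicate term was fitted to all samples. Two-sided Wald tests were adjusted by Benjamini-Hochberg over genes kept by independent filtering, at 0.05; edgeR 4.0.16, other scalings, filters, a replicate block, smaller fits and leaving out each library were alternatives. The scripts were tested on simulated data. Total counts of 39907318 to 81636393 set the precision; counting intervals (95%, exact) and the floor of 3 counts cover counting error only. Same-numbered samples deviated together from their group means for all 3 numbers between sgControl and RB1 knockout in abemaciclib (correlations 0.15, 0.259 and 0.112); in the other pairs of groups at least 1 number was under 0.1.

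Positions and exon lengths are from GENCODE 44, promoter windows from RefSeq on GRCh38.p14; all of the 6 genes but *A2M* matched. Genes named are the 6 genes, *RB1*, the 3 most correlated with each gene whose own mean normalised count was at least 10, and per list and contrast up to 4 with the largest fold change among those with adjusted p under 0.05 and a mean of at least 100; others are marked or are relatives of the 6. The genes, lists and motifs were chosen with earlier results of these data known, and the motifs after the sequences were seen.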

Additional observations from a re-analysis of the deposited data

Results flagged for a closer look

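For 3 of the genes not selected on their response, the test of the difference itself found a smaller abemaciclib response in RB1 knockout than in sgControl. The interaction on the log2 scale was −3.452 for *SERPINA1*, −4.277 for *SERPINA3* and −3.816 for *SERPINA5* (DESeq2 adjusted p = 1.01e-109, 0.0209 and 1.8e-16). *SERPINA1* also rose in RB1 knockout, whereas the *SERPINA3* value rests on single counts. Each group had 3 libraries, too few for the gap test for single libraries that stand apart. The sgControl DMSO libraries, the baseline of the response in sgControl, differed most among themselves, as given above.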

How the results depend on the processing

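Over the alternatives, *SERPINA1* and *SERPINA5* kept their calls in all 5 comparisons, and *SERPINA6* in all but the response in RB1 knockout. There, of the 4 genes not selected on their response, 2 in place of 1 passed as higher when only genes with at least 10 counts in 3 samples were fitted; leaving out 1 library at a time gave 1 to 2. *SERPINA3* lost its sgControl response and its interaction without single libraries, as given above. Values near 0 changed sign for *SERPINA5*. On leaving out single libraries its response in RB1 knockout ranged from −0.01344, without the first RB1 knockout abemaciclib library, to 0.6032. Its difference between genotypes in DMSO ranged from −0.4228 to 0.04507, and was 0.01074 without the third sgControl DMSO library and 0.04507 without the third RB1 knockout DMSO library. None of these passed. *SERPINA11* depended on the RB1 knockout DMSO libraries: without the second its interaction was −4.01 and its difference between genotypes in DMSO −2.13, and without the third the latter was −0.747. Counts of genes called over the whole table stayed within 1.5 times in every alternative. With the replicate number as a block, 4 of 4 genes not selected on their response passed as higher in sgControl, as without it, and the block changed no other call of these 4 genes. Spearman's rho named 0 of the same 3 genes as most like each of the 5 genes ranked. Depth limits *SERPINA3* throughout and *SERPINA6*, *SERPINA11* and *A2M* in RB1 knockout. The causes of these shifts were not tested.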
